A study of Mus musculus with 3 samples.

Results

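The genes described here act in the interferon response and in antigen presentation. They are 55 mouse genes listed by name, and each has a row in a table of 39304 rows. The rule used no measured value, but the list was drawn up with earlier results of these data known. All 55 are annotated as protein-coding. They were grouped by role: 9 genes of the MHC class I pathway, 4 of the class II pathway, 4 interferon receptor chains, 10 JAK kinases and STAT factors, 2 inhibitors of that signalling, 7 interferon regulatory factors and 19 interferon-induced effectors.

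The table holds 1 group of samples. Glomeruli, the capillary tufts that filter blood in the kidney, were taken from 1 wild type male C57BL/6 mouse aged 8 weeks and dissociated, and single cells were captured and lysed in a Fluidigm C1 device. Wells were assigned to a cell type by qPCR of markers, cDNA of 15 mesangial cells (the pericyte-like cells of the tuft) was mixed with cDNA of 15 endothelial cells, and the mixture was split into 3 aliquots for sequencing. No treatment, infection or second genotype was included, so the levels describe untreated cells as isolated. The part of dissociation and capture in these levels was not tested. Each SD given below is over these 3 aliquots (n = 3) and measures library making and sequencing, not differences between mice. In such a mixture a transcript cannot be assigned to the mesangial or the endothelial cells, and fewer cells of a type and less RNA per cell cannot be told apart.

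Interferons bind paired receptor chains on the cell surface. The receptors carry JAK kinases, which phosphorylate STAT factors, and these enter the nucleus, together with interferon regulatory factors, to switch on antiviral effectors and the genes that load peptides onto MHC molecules. Class I molecules are made by nearly all nucleated cells and show peptides from inside the cell to CD8 T cells, whereas class II molecules are typical of macrophages, dendritic cells and B cells and show peptides of ingested proteins to CD4 T cells.

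Most of the genes were read in the pool, and the roles differed in how many were. Levels are given as FPKM, fragments scaled to the length of the gene and the size of the library, and a gene is called detected where it had at least 1 FPKM in every aliquot. By this limit 38 of the 55 genes were detected, 69.1%, against 21.7% of all rows and 36.5% of the 21226 protein-coding genes. The interferon receptors were detected in full (4 of 4). The regulatory factors followed with 6 of 7, the effectors with 15 of 19, the class I pathway with 7 of 9, the kinases and STAT factors with 5 of 10, the class II pathway with 1 of 4 and the inhibitors with 0 of 2. Of the other 17 genes, 7 had reads but stayed under the limit and 10 were listed at 0 in every aliquot, where 54.5% of protein-coding genes and 71.7% of all rows were at 0. The median over the 55 genes, with the 10 at 0 included, was 10.8 FPKM, beside 0 over all rows. Without genes at 0 the median of the table was 10.6 FPKM, over 11142 genes. Over the genes of this list with at least 0.1 FPKM it was 24.4 FPKM. That filter also drops genes between 0 and 0.1 FPKM, so 24.4 and 10.6 FPKM are not directly comparable. Together the 55 genes took 0.761%, 0.726% and 0.742% of the reads in aliquots 1, 2 and 3. Of all reads, the effectors held 0.337% ± 0.0129 and the class I pathway 0.277% ± 0.00600.

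**Figure D1:**
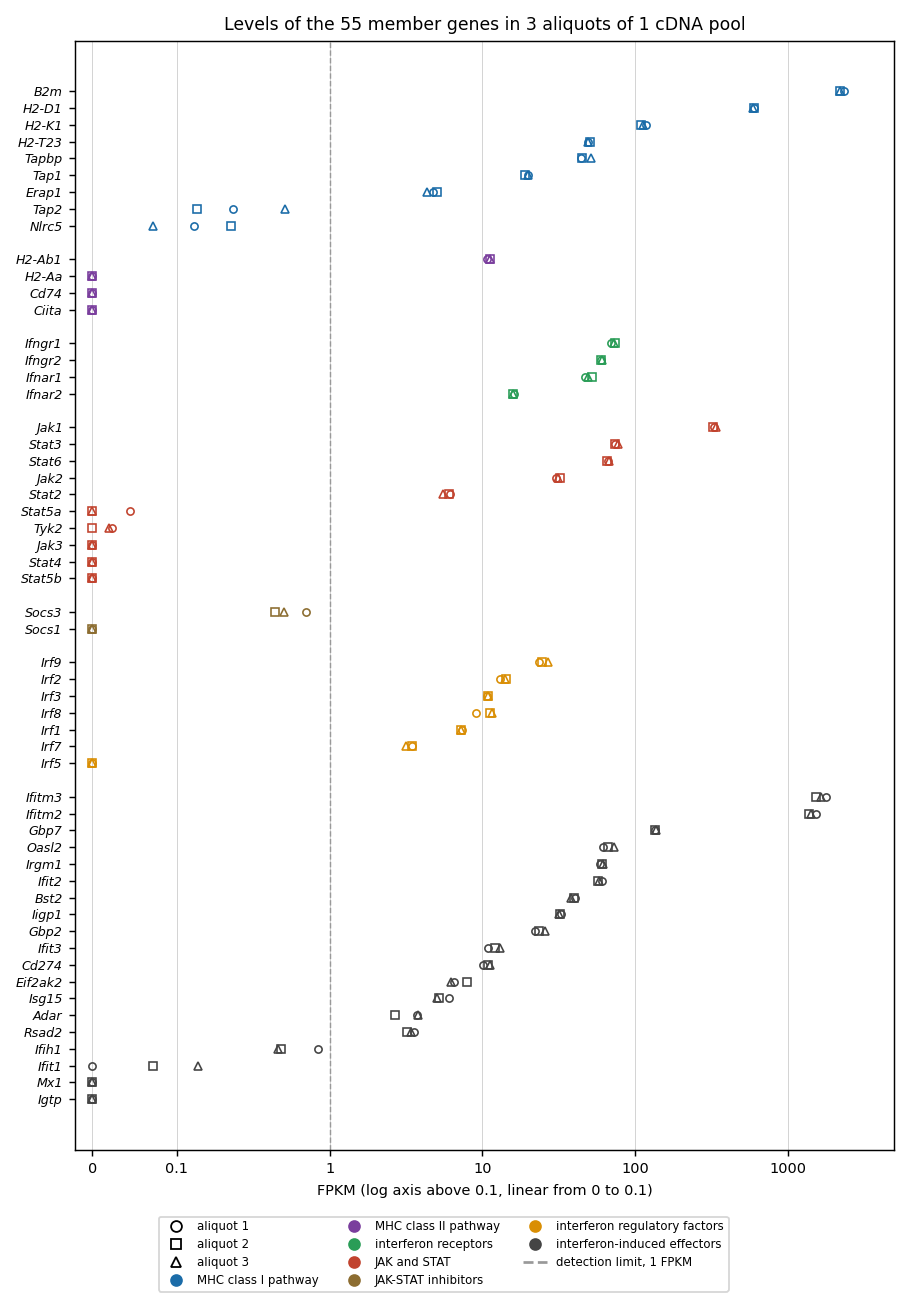
Level of each of the 55 genes in FPKM (horizontal axis, logarithmic above 0.1 and linear below) in the 3 aliquots (circle, square, triangle), coloured by role, with the detection limit of 1 FPKM dashed. B2m, Ifitm3 and Ifitm2 stand above 1000 FPKM, and 10 genes lie at 0 in all aliquots.

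The libraries held 9141422, 10427635 and 10976563 reads. A count of 3 reads, the limit that a count of 0 allows, was worth 0.164, 0.144 and 0.137 FPKM for a gene of 2000 bases, for counting error only. Of 76 cytosolic ribosomal protein genes, which every cell uses, 0 were listed at 0 and 75 were detected. A member at 0 is given as listed, with no statement that the transcript was absent. The labelled cell types were checked by marker lists: 8 of 8 mesangial markers were detected (highest Serpine2, Rgs5 and Itga8) and 8 of 8 endothelial ones (highest Emcn, Ehd3 and Eng). Podocyte markers, of the epithelial cell type that was not pooled, were detected for 5 of 6. Their summed level was 247 to 263 FPKM over the aliquots, against 5220 to 5291 FPKM for the mesangial list and 2317 to 2377 FPKM for the endothelial list. The highest podocyte markers were Wt1 (101 FPKM) and Podxl (75.9 FPKM), within the range of the pooled types, 14.4 (Tie1) to 1895 FPKM (Serpine2). Of 15 macrophage and dendritic cell markers 3 were detected and 11 were listed at 0, and of 10 lymphocyte markers none was detected and 9 were at 0.

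The class I light chain and the classical heavy chains H2-D1 and H2-K1 were among the higher genes of the pool. The transporter subunit Tap2 and the class I transactivator Nlrc5 were near 0. B2m (ENSMUSG00000060802, chromosome 2, 122147686 to 122153083, plus strand, GRCm38) encodes beta-2 microglobulin, the light chain shared by all class I molecules, and had 2325, 2205 and 2216 FPKM in aliquots 1, 2 and 3. It ranked 17 in the whole table, and aliquot 1 was its highest. H2-D1 (ENSMUSG00000073411, chromosome 17, 35262730 to 35267499, plus strand), a classical heavy chain, had 599, 601 and 593 FPKM. H2-K1 (ENSMUSG00000061232, chromosome 17, 33996017 to 34000347, minus strand), the other classical heavy chain of this strain, had 118, 110 and 113 FPKM. The aliquots of these 3 genes did not overlap: B2m was 3.76-fold above H2-D1 and H2-D1 5.25-fold above H2-K1 per length. With reads per longest transcript these were 8.75-fold and 4.02-fold. The non-classical heavy chain H2-T23, which encodes the Qa-1 molecule recognised by natural killer cell receptors, had 49.1, 50.8 and 48.9 FPKM. Other genes hold 14.3% of the runs of 50 bases in the longest H2-D1 transcript, 8.11% for H2-K1 and 14.96% for H2-T23. H2-D1 and H2-K1 share some of these runs with each other. The heavy chain levels and ratios are therefore uncertain where the counting could split or drop such reads.

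The B2m promoter is shown because it carries the core of an interferon-stimulated response element, the site bound by STAT and interferon regulatory factor complexes. The stretch is chr2:122147523-122147582 on the plus strand, from 164 to 105 bases before the RefSeq transcription start (GRCm38.p6), and capitals mark the core, searched as GAAA, any 2 bases and GAAA again, on both strands.
B2m: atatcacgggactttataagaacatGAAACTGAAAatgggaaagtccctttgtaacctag

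The peptide loading machinery was uneven. Tapbp encodes tapasin, which bridges the peptide transporter and the heavy chain, and had 44.5, 44.8 and 51.3 FPKM. Its range overlapped that of H2-T23, whereas per longest transcript the means were 8.55 FPKM for Tapbp and 32.1 FPKM for H2-T23. The length recovered for Tapbp was 529 bases, against 1095 bases for its mean annotated transcript. Its reads may therefore be too low by a common factor, and its value per longest transcript is uncertain. Tap1, the first subunit of the peptide transporter (chromosome 17, 34187553 to 34197225, plus strand), had 19.9, 19.1 and 19.9 FPKM from 1416 reads, and Tap2, the second subunit (chromosome 17, 34203527 to 34216321, plus strand), had 0.231, 0.135 and 0.513 FPKM from 3, 2 and 8 reads. The transporter works as a pair of these subunits, and their log2 ratio of FPKM + 1 was 4.01 ± 0.19 (SD) with no overlap of aliquots. Because Tap2 lies under the added 1 FPKM, the ratio depends on that amount and was 5.76 with 0.1 FPKM added. The means differed 66.9-fold, a value that rests on few Tap2 reads. Of exonic bases of Tap2, 18.5% lie over another annotated gene on the opposite strand, against 3.9% of Tap1 and 11.5% of Erap1. For Tapbp the share was higher, 29.0% on either strand, with 4.11% on the same strand. The part of such overlaps in the levels was not tested. Erap1, the peptidase that trims peptides in the endoplasmic reticulum, had 4.77, 5.04 and 4.31 FPKM. Nlrc5, the transactivator of class I genes, stayed under the limit with 0.129, 0.226 and 0.0714 FPKM from 3, 6 and 2 reads.

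Only 1 of the 4 class II genes was listed above 0. H2-Ab1 (ENSMUSG00000073421, chromosome 17, 34257689 to 34269419, plus strand), the class II beta chain, had 10.7, 11.2 and 11.1 FPKM from 77, 92 and 96 reads, near the middle of the genes above 0 (percentile 50.7). Its partner H2-Aa (chromosome 17, 34282744 to 34287823, minus strand), the alpha chain with which it forms the class II molecule, was listed at 0 in each aliquot. Also at 0 were Cd74, the invariant chain that guides class II molecules through the cell, and Ciita, the class II transactivator. No exonic base of H2-Ab1 overlaps another annotated gene, and no run of 50 bases of its longest transcript occurs in a transcript of another gene. The defining leucocyte markers Ptprc, Cd68, Adgre1, Csf1r, Itgax, Lyz2 and Cd79a were listed at 0 in each aliquot. The summed level of the 15 macrophage and dendritic cell markers was 133 to 134 FPKM, nearly all from the Fc receptor chain Fcer1g (66.1, 68.5 and 69.5 FPKM) and the transcription factor Zbtb46 (66.4, 63.2 and 61.4 FPKM), with the cytokine receptor Flt3 at 1.23, 1.86 and 1.60 FPKM. The summed level of the 10 lymphocyte markers was 0 to 0.191 FPKM. Whether leucocyte RNA had a part in the H2-Ab1 level was not tested.

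Along the class II end of the mouse MHC on chromosome 17, 13 of the listed genes lie within 321 kb, and 4 of them were detected. From H2-K1 the order runs through H2-Oa, a chain of the H2-O modulator of class II loading, and H2-DMa, H2-DMb2 and H2-DMb1, chains of the class II peptide exchange factor, all at 0, to Psmb9 (4.84, 3.98 and 4.52 FPKM), Tap1, Psmb8 (0.226, 0.198 and 0.188 FPKM) and Tap2. It ends with H2-Ob at 0, H2-Ab1, H2-Aa at 0 and H2-Eb1 at 0. Psmb9 and Psmb8 are immunoproteasome subunits. Detected genes and genes under the limit lay beside each other along the interval, as they did within the STAT and Ifit clusters described below.

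**Figure D2:**
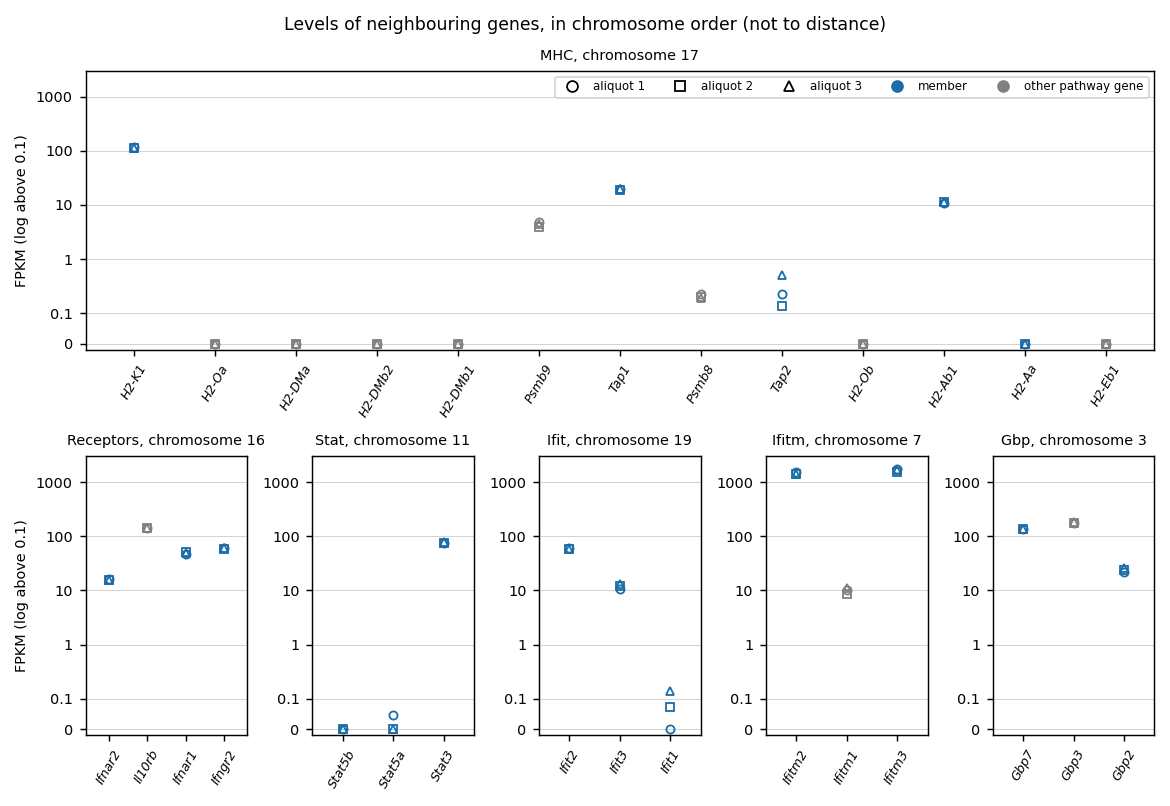
FPKM (vertical axis, logarithmic above 0.1) of neighbouring genes in chromosome order, not drawn to distance, in the 3 aliquots (circle, square, triangle). Members are blue and other pathway genes grey. H2-Ab1 stands at 10.7 to 11.2 FPKM between H2-Ob and H2-Aa, both at 0, and Ifit1 lies far below Ifit2.

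All 4 receptor chains were detected, and their aliquots did not overlap between neighbours in the order. Ifngr1, the ligand-binding chain for interferon gamma, had 70.02, 73.5 and 73.1 FPKM, and Ifngr2, its signalling partner, had 60.2, 59.4 and 60.4 FPKM. The type I receptor chain Ifnar1 had 47.03, 52.1 and 49.5 FPKM, and its partner Ifnar2 had 16.1, 15.9 and 15.8 FPKM. Ifnar1 was 3.11-fold above Ifnar2 per length, a log2 ratio of 1.58 ± 0.08 (SD), whereas the Ifngr1 to Ifngr2 ratio was 0.26 ± 0.04 on the same scale. That small difference depends on gene length: with reads divided by the longest annotated transcript it turned to -0.32. Ifnar2, Il10rb, Ifnar1 and Ifngr2 are neighbours on chromosome 16 (91372783 to 91565623, 193 kb), and all 4 were detected. Il10rb, which serves interferon lambda and interleukin 10 receptors, was the highest of them with 139, 145 and 142 FPKM. Ifnar2 shares 8.87% of its runs of 50 bases with Gm21970, which overlaps it on the same strand. Of exonic bases of Il10rb, 14.9% lie over another annotated gene on the same strand. Reads there could have been dropped or misassigned, so both levels and the Ifnar1 to Ifnar2 ratio are uncertain.

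A single kinase dominated the JAK family. Jak1 (ENSMUSG00000028530, chromosome 4, 101152367 to 101265282, minus strand), which serves type I, II and III interferon receptors and many cytokine receptors, had 331, 322 and 339 FPKM and rank 271. Jak2, the second kinase of the interferon gamma receptor, had 30.2, 32.1 and 31.3 FPKM, so that Jak1 was 10.6-fold above it (log2 ratio 3.36 ± 0.07, SD). With reads per longest transcript Jak1 was 2.80-fold above Jak2. Tyk2, the kinase that type I receptors pair with Jak1, was nearly unread, with 0.0237, 0 and 0.0197 FPKM from 1, 0 and 1 reads. Jak3, a kinase of lymphocyte cytokine receptors, was listed at 0. Each aliquot of Jak1 was above each aliquot of any other JAK gene.

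Of the 6 STAT genes among the members 3 were detected. Stat3, which transmits interleukin 6 family signals, had 73.6, 73.6 and 77.7 FPKM, and Stat6, the factor of interleukin 4 and 13, had 66.8, 65.5 and 67.5 FPKM. Stat2, the STAT specific to type I and III interferons, was lower with 6.15, 6.04 and 5.51 FPKM, 12.7-fold below Stat3. With the longest transcripts Stat3 was 3.55-fold above Stat2, and the order of Stat3 and Stat6 turned, with a log2 ratio of -0.06 in place of 0.17. Stat4, the interleukin 12 factor, and Stat5b were listed at 0, and Stat5a had a single read, in aliquot 1 (0.0451 FPKM). Stat5b, Stat5a and Stat3 adjoin each other on chromosome 11 (100780731 to 100939540), so a gene of 3868 reads lay beside a gene of 1 read. Stat5a and Stat5b transcripts share 10.8% and 11.8% of their runs of 50 bases with each other, so shared reads could have been dropped or misassigned in both. The same holds for Stat4, which shares 28.6% of these runs with Gm28177, a gene that overlaps it on the same strand.

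Neither inhibitor reached the limit. Socs3, which the cytokine receptors that use Stat3 induce as a brake, had 0.699, 0.437 and 0.499 FPKM from 7, 5 and 6 reads. Socs1, the brake on interferon gamma signalling, was listed at 0. Its promoter is shown because it holds the response element core in 2 overlapping copies although no read was listed. The stretch is chr16:10785582-10785641 on the minus strand, from 105 to 46 bases before the start (GRCm38.p6), and capitals mark the copies.
Socs1: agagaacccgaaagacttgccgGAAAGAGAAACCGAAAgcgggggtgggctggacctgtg

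The 6 detected regulatory factors had means between 3.37 and 25.1 FPKM. Irf9, the DNA-binding partner of STAT dimers in the type I response, was the highest with 23.7, 24.4 and 27.1 FPKM. Irf2, known as an antagonist of Irf1 at shared sites, had 13.1, 14.3 and 14.05 FPKM. Irf3, the factor that viral nucleic acid sensors activate, had 10.8, 10.8 and 10.9 FPKM, and Irf8, best known from myeloid cells, had 9.03, 11.3 and 11.6 FPKM. Irf3 and Irf8 did not differ beyond their spread. Irf1, the early interferon gamma target, had 7.39, 7.25 and 7.21 FPKM, below every aliquot of Irf8 and Irf2. Irf7, the amplifier of type I interferon production, had 3.49, 3.48 and 3.14 FPKM and was 3.22-fold below Irf3, or 5.83-fold per longest transcript. Irf5, a factor of toll-like receptor signalling in myeloid cells, was listed at 0.

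The promoters of Irf1 and Irf8 are shown because both hold gamma-activated sites, the palindrome bound by STAT dimers, and neither holds the response element core. The Irf1 stretch is chr11:53769898-53769957 and the Irf8 stretch chr8:120736170-120736229, both on the plus strand (GRCm38.p6), with TTCNNNGAA in capitals.
Irf1: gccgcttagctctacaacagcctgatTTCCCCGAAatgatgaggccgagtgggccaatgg
Irf8: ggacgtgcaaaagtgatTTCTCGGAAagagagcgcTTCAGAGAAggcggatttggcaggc

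Among the effectors, 2 membrane proteins stood far above the rest. Ifitm3 (ENSMUSG00000025492, chromosome 7, 141009586 to 141010770, minus strand), which blocks fusion of enveloped viruses in endosomes, had 1774, 1536 and 1653 FPKM and rank 24. Ifitm2 (ENSMUSG00000060591, chromosome 7, 140954837 to 140955987, minus strand), a close relative, had 1544, 1389 and 1415 FPKM and rank 32. Their aliquots overlapped, although within each aliquot Ifitm3 was higher (log2 ratio 0.19 ± 0.04, SD). Ifitm1 lies between them and had only 10.1, 8.45 and 11.2 FPKM. The next effector, Gbp7, was 10.6-fold below Ifitm2. Of the runs of 50 bases in the longest Ifitm2 transcript, 48.5% also occur in other genes, above all in Gm45717, which overlaps it on the same strand, and 10.02% of those of Ifitm3 do. The Ifitm2 level is therefore uncertain where the counting could split or drop such reads.

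The interferon-induced GTPases and the tethering and sensing proteins covered the middle range. Gbp7, a guanylate-binding protein, had 136, 136 and 138 FPKM from 23100 reads, and Gbp2 had 22.1, 23.5 and 25.6 FPKM. With Gbp3 between them at 176, 177 and 182 FPKM, the 3 genes examined in this cluster on chromosome 3 were all detected. Of the runs of 50 bases of Gbp7, 12.85% also occur in other genes, among them Gm43802, which overlaps it on the same strand. Such reads could have been dropped or misassigned. Irgm1, the regulator of the immunity-related GTPases, had 59.3, 60.5 and 61.8 FPKM, and Iigp1, a GTPase that attacks parasite vacuoles, had 32.6, 32.3 and 31.8 FPKM. Igtp, another GTPase of this family, was listed at 0. Its neighbour Irgm2, which overlaps 8.01% of the exonic bases of Igtp on the same strand, had 0.138 ± 0.0855 FPKM. In Irgm2 transcripts 12.3% of the runs of 50 bases of Igtp also occur, so shared reads could have been dropped or misassigned. Oasl2, an oligoadenylate synthetase relative, had 61.95, 66.3 and 72.7 FPKM. Bst2, the tetherin that holds budding virus at the membrane, had 40.7, 39.7 and 38.04 FPKM, and the checkpoint ligand Cd274 had 10.1, 10.8 and 11.1 FPKM.

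The Ifit genes, whose proteins bind foreign RNA, differed widely within a cluster of 99.3 kb on chromosome 19. Ifit2 had 61.1, 57.1 and 58.2 FPKM from 4048 reads, and its aliquots overlapped those of Irgm1. Ifit3 had 10.8, 12.04 and 13.1 FPKM. Ifit1 had 0, 0.0722 and 0.137 FPKM from 0, 2 and 4 reads. Ifit3 shares 51.2% of its runs of 50 bases with its copy Ifit3b, so its level is uncertain.

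The remaining effectors were lower. Isg15, the ubiquitin-like modifier, had 6.08, 5.20 and 5.06 FPKM, and Rsad2, the antiviral enzyme viperin, had 3.56, 3.22 and 3.39 FPKM. The double-stranded RNA kinase Eif2ak2 had 6.54, 7.96 and 6.27 FPKM and the RNA-editing enzyme Adar 3.75, 2.69 and 3.78 FPKM. The RNA sensor Ifih1 stayed under the limit with 0.839, 0.480 and 0.456 FPKM from 23, 15 and 15 reads. Mx1, the antiviral dynamin relative that is defective in most inbred strains, was listed at 0. Neighbours in the order whose aliquots overlapped among the effectors were Ifitm3 and Ifitm2, Irgm1 and Ifit2, Ifit3 and Cd274, and Adar and Rsad2. The other 10 steps of the order did not overlap. Some of these steps turned with reads per longest transcript: Oasl2 to Irgm1, Ifit2 to Bst2, Iigp1 to Gbp2 and Eif2ak2 to Isg15.

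Promoters of effectors at different levels are set side by side because the same core stands in genes that were detected and genes that were not. Each stretch has 60 bases upstream of the RefSeq start on GRCm38.p6, with the core or its reverse complement in capitals. They are Gbp7 at chr3:142530258-142530317 (plus), Bst2 at chr8:71537565-71537624 (minus), Ifit3 at chr19:34583365-34583424 (plus), Isg15 at chr4:156200856-156200915 (minus), Rsad2 at chr12:26456538-26456597 (minus), Ifit1 at chr19:34640769-34640828 (plus) and Igtp at chr11:58199496-58199555 (plus), in falling order of level.
Gbp7: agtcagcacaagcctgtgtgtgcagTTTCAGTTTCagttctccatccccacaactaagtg
Bst2: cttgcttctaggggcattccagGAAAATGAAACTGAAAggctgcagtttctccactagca
Ifit3: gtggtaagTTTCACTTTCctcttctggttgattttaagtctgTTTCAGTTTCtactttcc
Isg15: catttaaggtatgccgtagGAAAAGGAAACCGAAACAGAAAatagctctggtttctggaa
Rsad2: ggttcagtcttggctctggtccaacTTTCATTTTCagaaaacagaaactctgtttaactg
Ifit1: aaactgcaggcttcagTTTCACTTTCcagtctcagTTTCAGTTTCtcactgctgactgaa
Igtp: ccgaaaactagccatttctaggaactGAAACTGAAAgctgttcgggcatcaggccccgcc

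Promoter windows of 300 bases, 250 before and 50 after the RefSeq start, matched 48 of the 55 genes with 58 windows. The response element core on either strand was in 20 of the 58 windows, 34.5%, against 3.44% of all 32851 windows. The palindrome TTCNNNGAA was in 13 of 58, 22.4%, against 8.30%, CCAAT in 46.6% against 37.4% and TATAAA in 15.5% against 13.6%. Overlapping copies count once for a window, and in Bst2 and Ifitm3 the palindrome overlaps the core. The genes were listed because they are known interferon genes, so these shares describe the list. Genes with a match were found at all levels: of the 20 genes with the core 15 were detected, between 3.39 and 2249 FPKM, with a median of 9.45 FPKM over all 20, and of the 28 genes without it 21 were detected, with a median of 17.8 FPKM. Igtp, Socs1 and Stat4 had the core and were listed at 0, whereas H2-D1, Jak1 and Stat3 were high with neither motif in the window. The Stat4 core lies in a window inside the gene (chromosome 1, 52007990 to 52008289). The window at its annotated start held only CCAAT. The H2-D1 window (chromosome 17, 35262844 to 35263143) begins after the annotated gene start at 35262730, so bases before that start were not searched. A match is a run of letters, not evidence of binding.

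**Figure D3:**
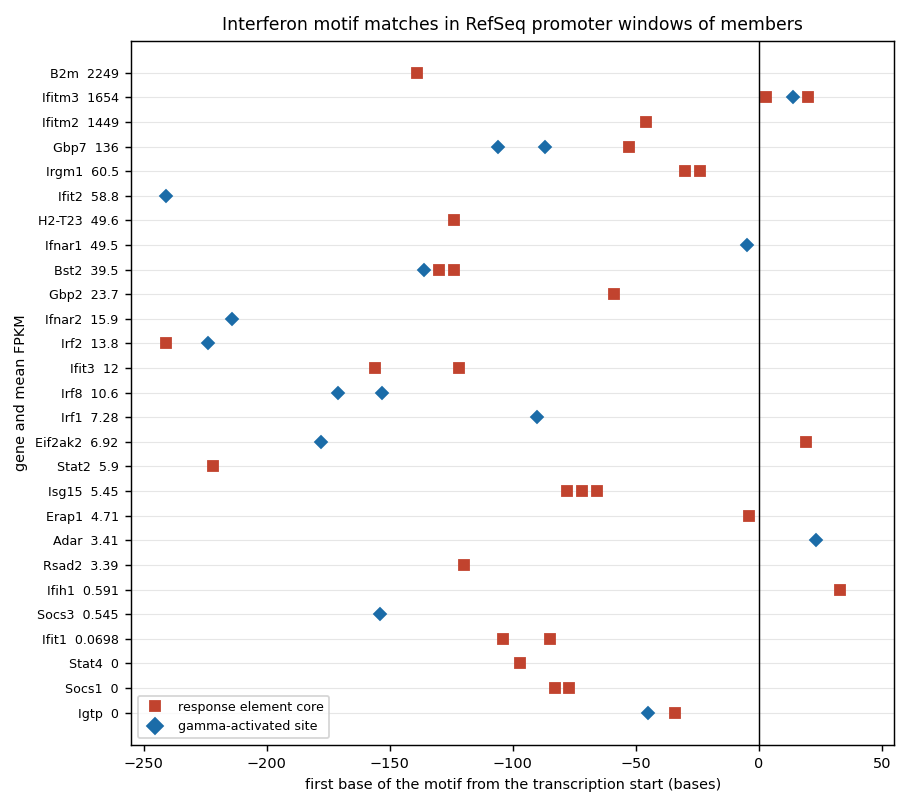
First base of each match to the response element core (red squares) and the gamma-activated site (blue diamonds) relative to the transcription start (horizontal axis, bases) for the 27 genes with a match, ordered by mean FPKM printed beside each name. Genes with a match run from B2m at 2249 FPKM to Igtp, Socs1 and Stat4 at 0. The Stat4 match lies in a window inside the gene.

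The spread between aliquots was called larger than read sampling for 3 of these genes, all above 1000 FPKM. Reads recovered from the FPKM steps were compared with the library totals by a chi-square test over all genes with at least 30 reads. Of the 9120 genes tested 1.09% were called at the 0.05 level after Benjamini-Hochberg adjustment of the chi-square test, and of the 39 genes of this list that could be tested 3 were: Ifitm3 (adjusted p = 3.98e-22), Ifitm2 (adjusted p = 2.57e-10) and B2m (adjusted p = 3.79e-05). Each was highest in aliquot 1, as were 64 of the 99 called genes of the table. Calls depended on depth: 53 of the 506 genes with at least 10000 reads were called, and among 6 such genes here H2-D1, Gbp7 and Jak1 were not. Leaving out aliquot 1 removed nearly all calls of the table, 2 of 8847 genes being called in place of 99 of 9120. Without it the chi-square test kept Ifitm3 (adjusted p = 0.000227) and lost B2m (adjusted p = 0.955) and Ifitm2 (adjusted p = 0.865). Sequencing reads of amplified cDNA are not independent molecules, so the test covers counting error only.

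The coefficient of variation over aliquots had a median of 3.12% for the 23 genes between 10 and 100 FPKM, against 4.05% for all detected genes of that class, and 1.66% against 2.16% between 100 and 1000 FPKM. The 3 genes above 1000 FPKM had a median of 5.71%, against 1.67% for the 51 genes of that class. H2-D1 was among the steadiest with 0.678%, and Adar had the largest value among detected genes of the list, 18.2%, from 285 reads.

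**Figure D4:**
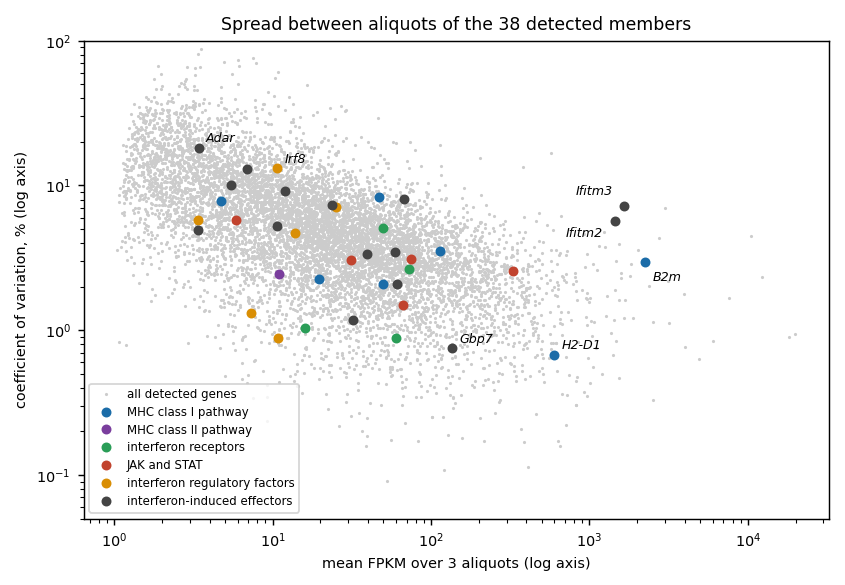
Coefficient of variation over the 3 aliquots (vertical axis, percent, logarithmic) against mean FPKM (horizontal axis, logarithmic) for the 38 detected genes, coloured by role, over all detected genes in grey. Ifitm3, Ifitm2 and B2m lie at 7.20%, 5.71% and 2.94%, above most genes of their level.

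Differences between genes depend on the length assigned to each, so ratios were also computed per longest annotated transcript. Of 25 pairs of related genes, 4 changed direction: Tapbp over Tap1 went from 1.21 to -0.43, Ifngr1 over Ifngr2 from 0.26 to -0.32, Ifngr1 over Ifnar1 from 0.54 to -0.25 and Stat3 over Stat6 from 0.17 to -0.06 (log2 ratios of FPKM + 1). Ratios such as H2-D1 over H2-K1 (2.38 ± 0.05, SD), Irf3 over Irf7 (1.44 ± 0.08), Irf1 over Irf2 (-0.84 ± 0.08) and Gbp2 over Gbp7 (-2.48 ± 0.09) kept their direction. Of the 32 steps in the order of detected genes within a role, 9 turned with that length. The turn of Tapbp over Tap1 is uncertain, because a common factor may remain in the Tapbp reads.

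**Figure D5:**
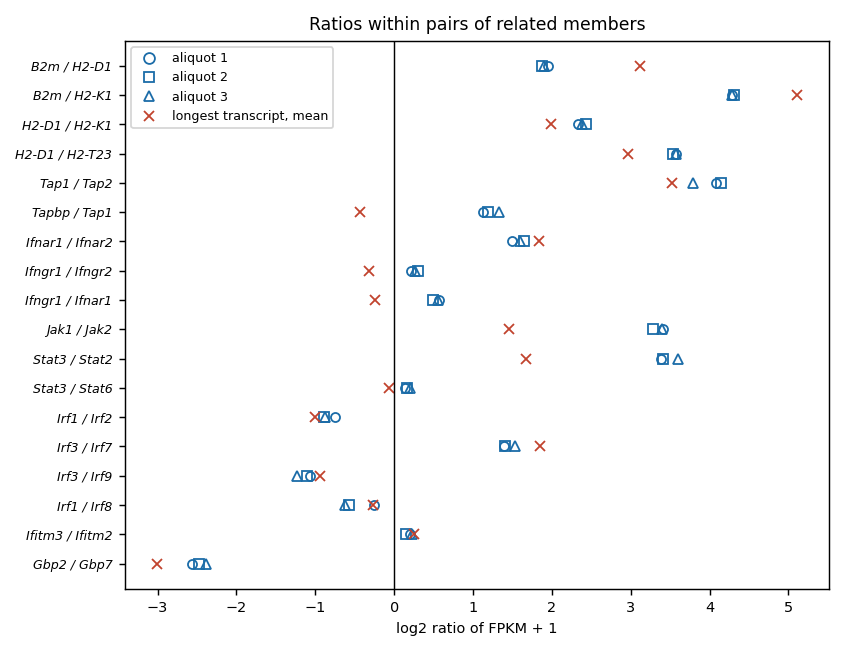
Log2 ratio of FPKM + 1 (horizontal axis) within the 18 pairs whose genes both had at least 0.1 FPKM, for the 3 aliquots (blue circle, square, triangle) and as the mean with reads per longest transcript (red cross). Blue symbols lie close together in each pair, and the crosses of 4 pairs fall on the other side of 0.

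The wider pathway was examined through 107 other genes, of which 105 had a row and 57 were detected, 54.3%. Of 9 ligand and lambda receptor genes Il10rb alone was detected, and the other 8, such as Ifna4, Ifnb1 and Ifne, were at 0. Class I genes for folding and peptide supply, listed together with further heavy chain genes, were detected for 11 of 15. They were led by the chaperone Canx (2514 ± 8.34 FPKM), the disulfide isomerase Pdia3 (474 ± 14.8 FPKM) and the proteasome activator Psme2 (261 ± 8.68 FPKM). Lowest of the detected were the heavy chain gene H2-Q4 (5.51 ± 0.661 FPKM) and Psmb9 (4.45 ± 0.433 FPKM). H2-T10, a heavy chain relative annotated as a polymorphic pseudogene, was at 0. Class II accessory genes were listed at 0 for 12 of 13, among them Cd40, Cd80 and Cd86, and only the protease Ctss was detected (2.74 ± 0.396 FPKM).

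Regulators of JAK and STAT signalling were detected for 12 of 15. Highest were Socs2 (61.3 ± 2.59 FPKM), a brake on growth hormone signalling, and the phosphatases Ptpn1 (42.4 ± 3.43 FPKM) and Ptpn2 (33.3 ± 2.79 FPKM), which act on JAK kinases. Lowest were Usp18 (2.65 ± 0.289 FPKM), the enzyme that removes Isg15, and Pias3 (2.08 ± 0.200 FPKM), and Cish, Ptpn6 and Socs7 were at 0. Nucleic acid sensors and adaptors were detected for 8 of 15, led by the lipopolysaccharide receptor Tlr4 (153 ± 5.79 FPKM), the RNA sensor Ddx58 (50.7 ± 4.48 FPKM) and the adaptor Myd88 (23.8 ± 2.13 FPKM), with Traf3 (2.13 ± 0.120 FPKM) and Trim25 (1.63 ± 0.101 FPKM) lowest. Dhx58, Ikbke and Mb21d1 were at 0. Of 5 relatives and partners of the regulatory factors 3 were detected, the corepressors Irf2bp2 (26.8 ± 1.04 FPKM), Irf2bpl (6.03 ± 0.494 FPKM) and Irf2bp1 (2.63 ± 0.245 FPKM), and the lymphoid factor Irf4 was at 0.

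Of 33 further interferon-induced genes with a row, 21 were detected. Ifi27 (619 ± 10.6 FPKM), the secreted glycoprotein Lgals3bp (212 ± 7.47 FPKM) and Gbp3 led, and Pml (2.14 ± 0.140 FPKM) and Herc6 (1.62 ± 0.0798 FPKM) were the lowest detected. Cxcl10, Gbp4 and Gbp9 were among the 7 listed at 0. The share detected was 63.6%, next to 78.9% of the 19 effectors.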

How the data were processed

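Sequenced were 3 aliquots of 1 cDNA pool. The authors deposited FPKM, 1 column for each aliquot. The build GRCm38 and the tools TopHat2 2.0.12 and HTSeq 0.6.1 are named, without their roles, per the submitters' processing notes. Settings, strand handling, annotation release and the gene lengths behind FPKM: not given in the sources used here. Gene symbols were looked up for 37607 of 39179 Ensembl identifiers, with 3 older symbols matched through RefSeq synonyms. Coordinates, transcript lengths and exon overlaps came from GENCODE M21 (GRCm38), not known to be the release behind the table, and promoter windows from RefSeq (GRCm38.p6).

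Because each gene's FPKM is a multiple of the worth of 1 read, library totals and reads per gene could be recovered for 11142 genes (tolerance 0.0001 reads). For 374 of them a multiple of the smallest fitting length was used, because it matched the mean transcript length. In the others a common factor may remain, which would change their read numbers and their values per longest transcript. Recovered reads made up 96.7% of each total. Spread was tested by chi-square where a gene had 30 or more reads, adjusted by Benjamini-Hochberg over all genes tested, after the scripts were tested on simulated data. No count model was run, and 1 group allows no comparison of conditions. Log2 ratios used FPKM + 1. Alternatives changed the detection limit, pseudocount, read minimum, gene length, strand of motifs and aliquots used.

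The members and lists were chosen with earlier results of these data known. All members were named. From each further list the 3 highest, the 2 lowest detected and up to 3 genes at 0 were named. A few items are not reported here. Neighbours in gene clusters, leucocyte markers, genes set as examples beside others and genes whose promoters are shown were chosen after their values were seen, as was the count of ribosomal protein genes and of runs of 50 bases shared between transcripts. That run length is not the read length, which was not known here. Python 3.11.15, numpy 2.4.6, pandas 2.3.3, scipy 1.17.1 and matplotlib 3.10.9 were used.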

Additional observations from a re-analysis of the deposited data

How the results depend on the processing

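The counts of detected genes, in all and for each role, stayed within 1.5 times under limits of 0.5 and 5 FPKM, a mean of at least 1 FPKM, reads per longest transcript and leaving out each aliquot. The median over the 55 genes was 10.8 FPKM. It was 11.1 FPKM with medians over aliquots, 10.8 to 11.2 FPKM without one aliquot, 24.4 FPKM over genes of at least 0.1 FPKM and 7.15 FPKM per longest transcript. Genes beyond sampling noise numbered 1 to 3 when an aliquot was left out, the 1 without aliquot 1, and 3 with minima of 10 or 100 reads. Over all genes tested, 2 of 8847 were called without aliquot 1, 98 of 8832 without aliquot 2 and 65 of 8795 without aliquot 3. On the forward strand alone the response element core was in 12 genes in place of 20 and TATAAA in 4 in place of 8. Per longest transcript 19 of 25 pair ratios moved beyond their SD over aliquots and 4 turned: Tapbp over Tap1 (-0.43), Ifngr1 over Ifngr2 (-0.32), Ifngr1 over Ifnar1 (-0.25) and Stat3 over Stat6 (-0.059). The turn of Tapbp over Tap1 is uncertain, as stated above. A pseudocount of 0.1 FPKM moved 11 ratios and turned 0. No paired analysis was possible because the series has 1 group.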
